A study of Mus musculus with 6 samples.

Results

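Tfrc, the gene of the transferrin receptor (also called CD71), was followed in mouse spleens after induction of experimental autoimmune encephalomyelitis (EAE), a model of multiple sclerosis, and in control spleens. It is 1 of 15 genes whose RefSeq transcripts the array files name, among 60915 non-control probes. It was found through its transcript, NM_011638.3 in the files, which RefSeq's gene table for GRCm38.p6, read only for names, lists as Tfrc, gene 22042. Its 1 probe was printed as 20 spots scattered over each array, out of 61200 non-control spots. The probe's own sequence was not used here.

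The transferrin receptor is a cell-surface protein that binds iron-loaded transferrin and carries it into the cell by endocytosis, where the iron is released for heme and iron-sulfur proteins. Cells low in iron stabilise the Tfrc transcript through iron regulatory proteins, which bind hairpins in its 3′ untranslated region. Erythroid precursors, which the mouse spleen holds in its red pulp, and dividing lymphocytes carry much of this receptor.

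Each group had 3 female mice of strain C57BL/6, 12 weeks of age. Mice of the EAE group received 2 mg/mL of a myelin oligodendrocyte glycoprotein (MOG) peptide, called MOG33-35 in the titles and MOG35-55 in the protocol, and 200 ng of pertussis toxin, by tail vein. Controls got phosphate-buffered saline (PBS) instead of the peptide, and the labels do not say clearly whether they also got the toxin. Total RNA of each spleen was labelled with Cy3 and hybridised to its own 1-colour Agilent array, so 6 arrays stand for 6 mice.

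The question addressed was whether the Tfrc transcript differed between EAE and control spleens. Before any scaling, Tfrc was dimmer in every EAE spleen. Its processed signal, in scanner units, was 61106 in PBS 1, 41566 in PBS 2 and 42216 in PBS 3. In EAE it was 25140 in EAE 1, 14597 in EAE 2 and 25201 in EAE 3. PBS 1 was the brightest, EAE 2 the dimmest, and the groups did not overlap. The log2 difference of these unscaled signals, EAE minus PBS, was -1.18 ± 0.32 (SE, n = 3 per group), a 2.26-fold lower signal (exact two-sided permutation p = 0.1, and with 3 arrays a group no smaller p is possible).

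The EAE arrays were dimmer as a whole. Unscaled signals of 51.1% of the tested probes were likewise lower on every EAE array than on every PBS array. The 75th percentile of the non-control signals lay between 429 and 568 in PBS and between 278 and 394 in EAE, with a log2 difference of -0.58. All levels below are therefore log2 signals minus the log2 of this percentile, so a level of 6 means a signal 6 doublings above the percentile of its array.

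After scaling, the Tfrc level was 6.95 in PBS 1, 6.19 in PBS 2 and 6.62 in PBS 3. It was 6.50 in EAE 1, 5.47 in EAE 2 and 6.00 in EAE 3. The groups now overlapped, because EAE 1 lay above PBS 2, while EAE 2 and EAE 3 remained below all 3 controls. The group means were 6.59 ± 0.38 (SD, n = 3) in PBS and 5.99 ± 0.51 in EAE.

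The scaled difference did not pass the test. It was -0.60 ± 0.31 on the log2 scale (SE, limma adjusted p = 0.269 over all probes tested, exact two-sided permutation p = 0.2 for the single value). Its 95% interval ran from -1.32 to 0.13, that is, from a level 2.50-fold lower in EAE to one 1.09-fold higher. In the same test 8.8% of the 41178 probes were called in either direction and 2.67% were called lower in EAE. The median log2 difference over the tested probes was -0.02, and 14.2% of them had a lower difference than Tfrc. In RNA of a whole spleen, fewer cells that carry the transcript and less transcript per cell cannot be told apart.

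**Figure D1:**
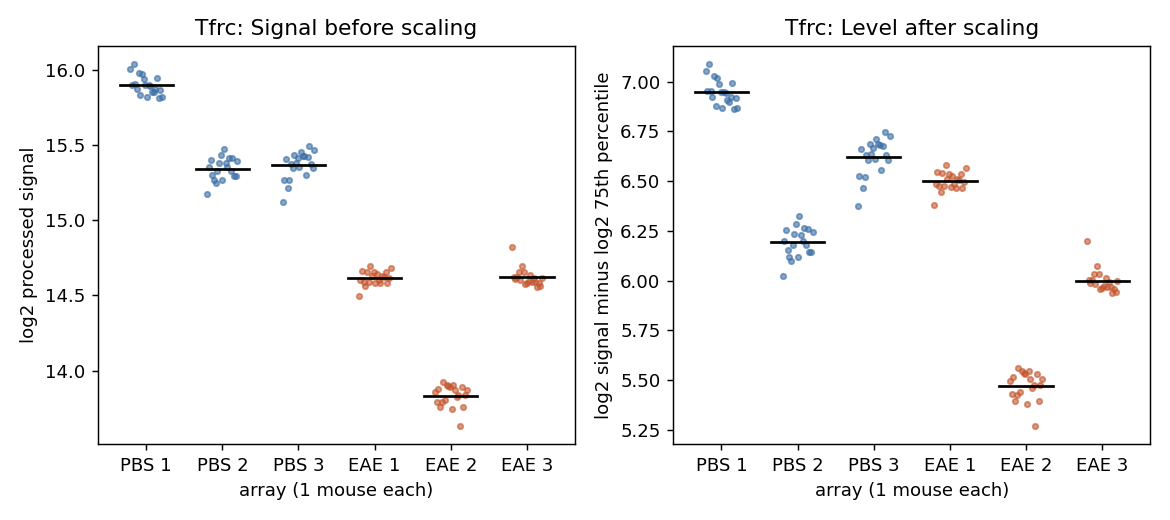
Tfrc on each of the 6 arrays, with a point for each spot without an outlier flag (19 or 20 per array) and a line at their mean. On the left the log2 processed signal puts all EAE arrays (14.6, 13.8 and 14.6) below all PBS arrays (15.9, 15.3 and 15.4). On the right, after the log2 75th percentile of each array is subtracted, EAE 1 (6.50) lies above PBS 2 (6.19).

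The 20 spots of an array gave nearly the same value. Of the 20 Tfrc spots, all were well above background and 0 were saturated on every array, and 1 spot on PBS 2 and 1 on EAE 3 were left out for an outlier flag. The brightest spot reached 8.81% of the scanner's saturation value. Within an array the spots had an SD of 0.046 to 0.092 on the log2 scale, so the mean of an array had a standard error over spots of 0.010 to 0.021. Spots of an array share 1 RNA sample and do not count as replicates.

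At each of the 18 spot positions measured on all 6 arrays the mean scaled level was lower in EAE, with a log2 difference between -0.69 and -0.46 and a median of -0.60. PBS 1 was the highest array and EAE 2 the lowest at all 20 positions. Of the 18, the difference averaged -0.56 over the 7 positions in the upper rows of the array and -0.62 over the 11 in the lower rows. Mice of the same group differed far more than spots did.

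The spread of Tfrc between mice was wide for this data set. Its SD among the 3 PBS mice, 0.38 on the log2 scale, exceeded that of 86.2% of the tested probes, whose median was 0.18. Among the EAE mice its SD of 0.51 exceeded that of 76.4% of the tested probes, with a median of 0.32. Of the 15 named genes Tfrc had the largest SD in PBS and the second largest in EAE, after G6pd2, at 0.65. G6pd2 is a retrotransposed copy of the gene for glucose-6-phosphate dehydrogenase, and its probe may also bind RNA of the parent gene G6pdx. PBS 1 and PBS 2, both untreated with the peptide, were 0.76 apart in level, further than the group means.

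The Tfrc probe was among the brightest on every array. Counted from the brightest, it ranked 650, 1038 and 820 in PBS and 1158, 1850 and 1432 in EAE, among the 60888 to 60911 probes measured on each array. Brighter than Tfrc were 1.07%, 1.70% and 1.34% of probes in PBS, and 1.90%, 3.04% and 2.35% in EAE. Every EAE array placed it lower than every PBS array did (exact two-sided permutation p = 0.1), although the scaled levels overlapped. By the same rank, 15.7% of the tested probes were lower on every EAE array. Brightness depends on how well a probe binds, so the rank places the signal and not the abundance of the transcript. Among the 15 named probes Tfrc was number 5 or 6 in brightness on all arrays but EAE 2, where it was number 9.

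A ratio of Tfrc to another gene on the same array does not depend on a single factor that scales the whole array. Normalizations that depend on brightness, such as quantile normalization and cyclic loess, can change it. The ratios were not rerun with those. The log2 ratio of Tfrc to the mean of the other 14 named genes was 2.23 in PBS 1, 1.66 in PBS 2 and 1.96 in PBS 3. In EAE it was 1.58 in EAE 1, 0.80 in EAE 2 and 1.40 in EAE 3. The groups did not overlap, though EAE 1 and PBS 2 lay only 0.08 apart. The ratio differed by -0.69 ± 0.29 (SE), a 1.61-fold lower ratio in EAE (exact two-sided permutation p = 0.1). For 17.4% of the tested probes the ratio to these 14 genes was likewise lower on every EAE array.

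The size of that difference moved with 1 mouse and with how the 14 genes were summarised. Without EAE 2 it was -0.46, and the groups still did not overlap (exact two-sided permutation p = 0.2). By the same test p was also 0.2 without PBS 1 or PBS 3, and 0.1 without PBS 2, EAE 1 or EAE 3. With the median of the 14 genes in place of their mean the difference was -0.33 (exact two-sided permutation p = 0.6), and without Actb among them it was -0.80 (p = 0.1).

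Against single genes, Tfrc had a lower mean ratio in EAE for 13 of 14 genes, and every EAE array lay below every PBS array for 9. These ratios share the 6 Tfrc values and are not independent. The share of tested probes lower on every EAE array by the same ratio runs from 0.0656% to 68.8%, depending on the gene. Over the 14 ratios, exact two-sided permutation p-values were 0.1 for those 9, the smallest unadjusted value this design allows. After Benjamini-Hochberg adjustment they were 0.156. The SEs given for these ratios come from the spread of each ratio within its groups. The limma fits behind the adjusted p-values pool the spread over probes, and their SEs for Tfrc ran from 0.24 with Gapdh as the scale to 0.47 with G6pd2. Shares of probes called are of those tested.

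The ratio to Nono, an RNA-binding protein gene, was lower on every EAE array than on every PBS array. It was 2.98, 2.80 and 2.85 in PBS against 2.56, 2.20 and 2.60 in EAE, a log2 difference of -0.42 ± 0.14 (SE). By this ratio 3.53% of the tested probes were lower on every EAE array, and probes higher on every EAE array were not counted. Nono itself had a log2 difference of -0.18 on the scaled levels, and Hsp90ab1 1 of -0.15. The ratio to the chaperone gene Hsp90ab1 was 0.77, 0.45 and 0.50 in PBS against 0.37, -0.36 and 0.37 in EAE, a difference of -0.45 ± 0.26, against 6.39% of the tested probes. With limma over all probes and these genes as the scale, the difference of Tfrc had an adjusted p of 0.485 against Nono, where 4.33% of probes were called, and 0.361 against Hsp90ab1, where 6.24% were.

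The glycolytic gene Gapdh, the purine salvage gene Hprt and the tubulin gene Tuba1b, with own log2 differences of 0.30, 0.25 and 0.37, gave larger ratio differences. The log2 ratio of Tfrc to Gapdh was -1.23, -1.69 and -1.50 in PBS against -2.21, -2.67 and -2.24 in EAE, a difference of -0.90 ± 0.20 (limma adjusted p = 0.0741 with Gapdh as the scale). The ratio to Hprt differed by -0.84 ± 0.29 (adjusted p = 0.0884) and that to Tuba1b by -0.96 ± 0.26 (adjusted p = 0.0506). With these scales 5.14%, 9.44% and 12.5% of probes were called. No EAE array reached a PBS array in any of these ratios, as for 25.8% of the tested probes against Gapdh, 28.2% against Hprt and 34% against Tuba1b.

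The lysosomal enzyme gene Gusb, the cyclophilin gene Ppia and the ribosomal protein gene Rpl13a completed the ratios without overlap, together with G6pd2. Tfrc to Gusb differed by -1.04 ± 0.27 (limma adjusted p = 0.0572 with Gusb as the scale, 39% of tested probes lower on every EAE array). Tfrc to Ppia differed by -0.76 ± 0.27 (adjusted p = 0.123, 20.7%) and Tfrc to Rpl13a by -0.68 ± 0.33 (adjusted p = 0.227, 17%). With Gusb, Ppia and Rpl13a as the scale, 8.45%, 6.31% and 4.98% of probes were called. The ratio to G6pd2 had the largest difference, -1.72 ± 0.21 on the log2 scale (adjusted p = 0.00537), and was the only 1 of the 14 with Tfrc called. With G6pd2 as the scale 54.5% of the tested probes were called and 68.8% were lower on every EAE array, and G6pd2 itself had a log2 difference of 1.13.

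In the other 5 ratios the groups overlapped. For B2m, which encodes the light chain of MHC class I, the difference was -0.67 ± 0.34 (limma adjusted p = 0.198 with B2m as the scale, 8.58% of probes called). For Ldhal6b, of the lactate dehydrogenase family, it was -1.08 ± 0.52 (adjusted p = 0.0698, 19.9% called), and for the glycerol kinase gene Gk -0.58 ± 0.36 (adjusted p = 0.431, 8.73% called). Ldhal6b was the dimmest denominator, with a mean log2 ratio of Tfrc to it of 9.58 in PBS and 8.50 in EAE. What its dimness adds to the difference was not tested. Tbp, the gene of the TATA-binding protein, gave the difference nearest to 0, at -0.33 ± 0.31 (limma adjusted p = 0.476 with Tbp as the scale, 11.2% called). Its own log2 difference was -0.26. Of the tested probes 17.4%, 36.9%, 8.46% and 4.68% were lower on every EAE array against B2m, Ldhal6b, Gk and Tbp.

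Actb, the gene of beta-actin, was the only denominator with the opposite sign. The log2 ratio of Tfrc to Actb was 0.26, -0.81 and -0.29 in PBS against 1.30, -0.41 and 0.64 in EAE, a difference of 0.79 ± 0.59 (exact two-sided permutation p = 0.3, or 0.323 adjusted over the 14 ratios). Actb had a log2 difference of -1.39 on the scaled levels. Used as the only scale, it gave 84.5% of the tested probes called, with Tfrc not among them (limma adjusted p = 0.119).

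**Figure D2:**
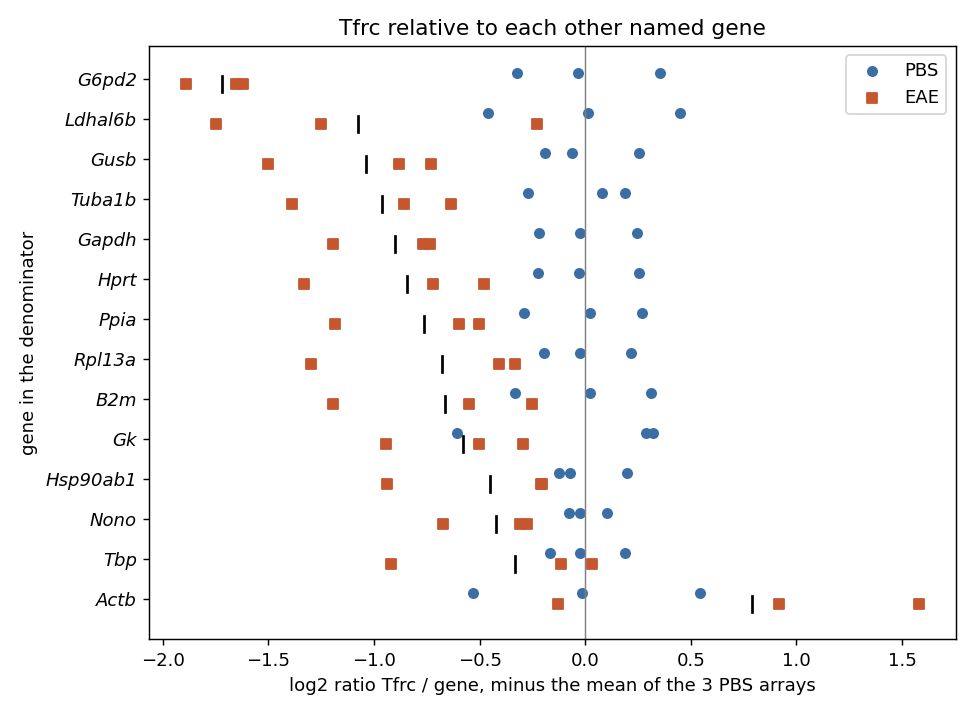
Log2 ratio of Tfrc to each of the other 14 named genes on every array, shifted so that the mean of the 3 PBS arrays is 0 for each gene, with circles for PBS, squares for EAE and a black tick at the EAE mean. For 9 genes all squares lie left of all circles, from G6pd2 (-1.72) to Nono (-0.42), and for Actb the tick lies to the right (0.79).

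The pattern of Tfrc over the 6 mice was closest to those of Nono, Hsp90ab1 and Tbp. Likeness was measured over 6 arrays as the root mean square difference between the scaled levels of 2 genes, each centred on its own mean. This was 0.25 for Nono, 0.35 for Hsp90ab1 and 0.36 for Tbp, and largest for G6pd2 at 0.89. Tfrc, Nono, Hsp90ab1 and Tbp were the 4 named genes with their highest level in PBS 1. Tfrc and Nono alone had their lowest level in EAE 2, at -0.82 and -0.35 from their means. The levels of Tfrc spanned 1.48 on the log2 scale and those of Nono 0.70.

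**Figure D3:**
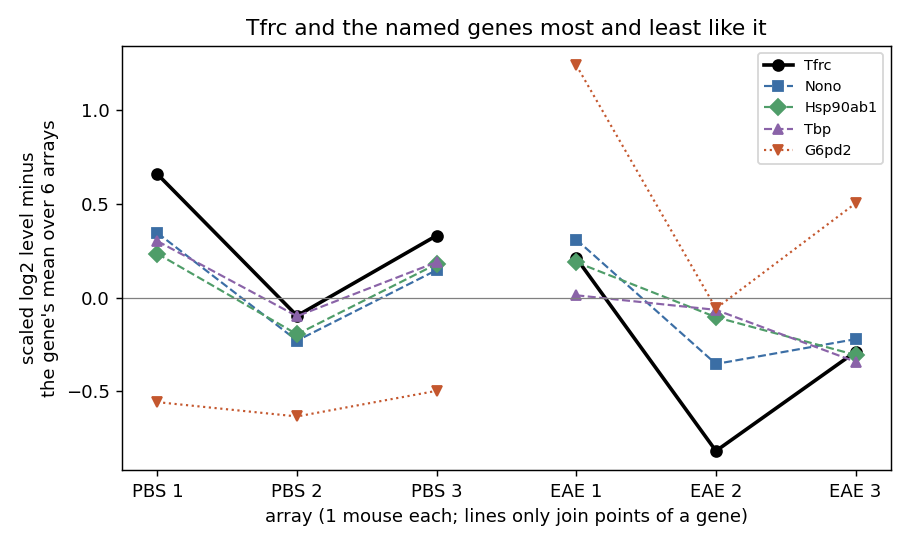
Scaled log2 level of Tfrc, of the 3 named genes closest to it (Nono, Hsp90ab1 and Tbp) and of the least similar one (G6pd2), each minus its mean over the 6 arrays. Tfrc runs from 0.66 in PBS 1 to -0.82 in EAE 2, Nono from 0.35 to -0.35 in the same arrays, and G6pd2 peaks in EAE 1 at 1.24.

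Further measures moved with the groups. Control spots for the 3′ end of mouse GAPDH were brighter than those for the 5′ end, with log2 differences of 1.12 ± 0.07 in PBS and 1.36 ± 0.15 in EAE (SD, n = 3), higher on every EAE array than on every PBS array. Probes well above background made up 67.9% to 70.9% of the probes in PBS and 58.5% to 65.2% in EAE. Their part in the Tfrc values was not tested. EAE 3 was scanned apart from the other 5 arrays. Within the shared scan the difference of Tfrc was -0.60 (95% interval -1.48 to 0.27, limma adjusted p = 0.325).

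The planned settings reuse the same arrays and are not independent of each other. The scaled difference of Tfrc was negative under all 21 of them and passed the test in 0. The scan as a block and the data without EAE 3 are the same fit and count as 2 of the 21. Its size was largest with normexp background correction and quantile normalization, at -0.86 (95% interval -1.39 to -0.33, limma adjusted p = 0.0536), within a range of 0.0536 to 0.547. Cyclic loess gave -0.86 (adjusted p = 0.0927) and quantile normalization alone -0.85 (adjusted p = 0.0951). Without EAE 2, the mouse with the lowest Tfrc, the difference was -0.34 (95% interval -1.03 to 0.36, adjusted p = 0.476). Without PBS 1, the mouse with the highest, it was -0.42 (adjusted p = 0.547). In 7 of the 21 settings the 95% interval lay below 0, which is an unadjusted p under 0.05.

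**Figure D4:**
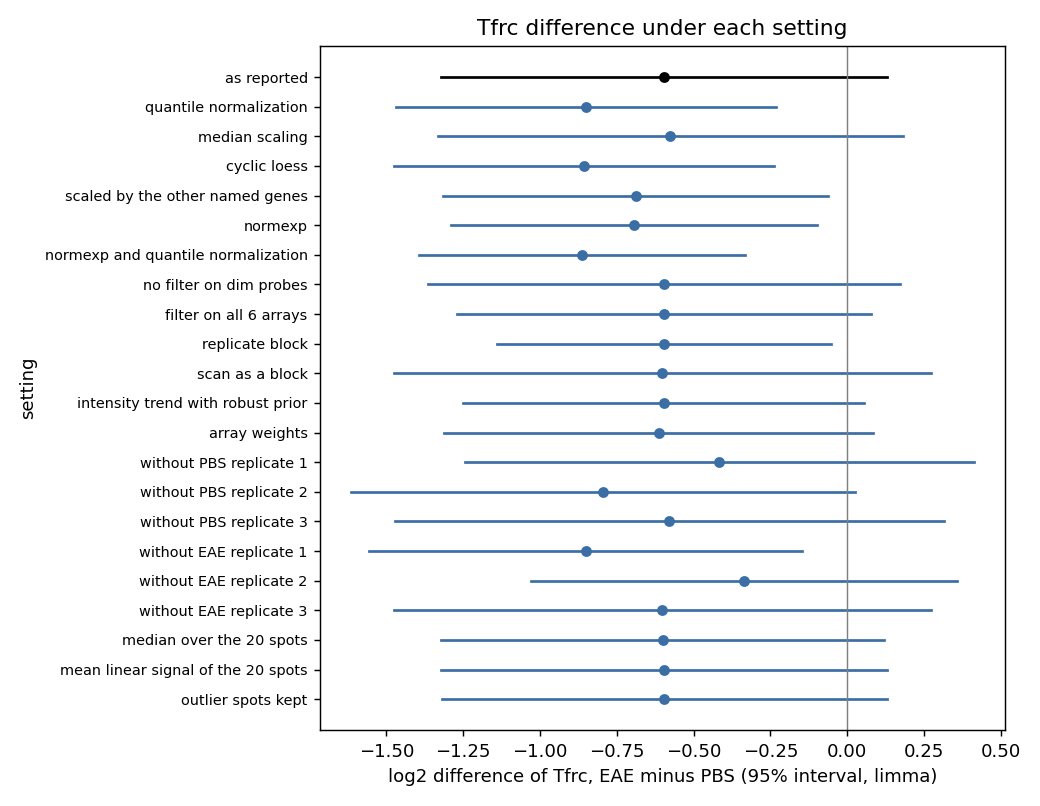
Log2 difference of Tfrc, EAE minus PBS, with its 95% limma interval, as reported (black, -0.60) and under the 21 planned settings (blue). All points lie left of 0, from -0.86 to -0.34, and 7 of the blue intervals do not reach 0.

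Other genes of iron handling and the cell types of the spleen could not be set beside Tfrc. Of a list of 20 genes of iron uptake, storage and export, Tfrc was the only one with a named probe. It was also the only one of 8 erythroid markers. Of the markers of B cells, T cells, red pulp macrophages, neutrophils and dividing cells, 0 had a named probe, so neither the labelled tissue nor its cell makeup was checked against markers. The remaining probes carry design names that the files do not pair with genes, and their genes were not analysed here. The percentile used for scaling, the ranks and the shares of probes given above set Tfrc mainly against these unnamed probes. Which kinds of transcript they measure was not tested, so these values do not place Tfrc among protein-coding genes.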

How the data were processed

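Intensity values came from the 6 deposited scanner files, made with Agilent Feature Extraction 11.0.1.1 per the file headers and the submitters' processing notes. Per the file headers, this software subtracted background and detrended each array by itself, with no normalization between arrays, for an array design on mm9. The deposited normalized table holds no Tfrc probe and was not used, so the comparison with it was not run.

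Levels were log2 processed signals minus the array's log2 75th percentile over non-control spots (the negative-named probes set aside), averaged over spots without outlier flags. The test, limma 3.58.1 in R 4.3.3, took probes well above background on 3 or more arrays (two-sided, adjusted by Benjamini-Hochberg over all tested probes, threshold 0.05), and the fit was checked on simulated arrays. Single values and ratios had exact two-sided permutation tests. Precision is limited by the number of arrays.

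Settings tried were other scalings, normexp (offset 50) on median signals, other filters, blocks, weights, spot averages and each array left out. Scaling by single genes was added after seeing the data. Members, lists and rules were chosen with earlier results of these data known. Named were Tfrc, the 14 other named genes as denominators, the 3 nearest in pattern and the least similar.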

Additional observations from a re-analysis of the deposited data

How the results depend on the processing

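Leaving out each array moved the scaled difference of Tfrc between -0.85 and -0.34, its ratio to the other 14 genes between -0.85 and -0.46, and its unscaled difference between -1.31 and -0.92. Scaling by single genes, a choice made after seeing the data, gave -1.72 with G6pd2 and 0.79 with Actb. The cause was not tested. In percent of probes dimmer than Tfrc, the EAE minus PBS difference was -1.06 over all probes and -1.56 over the probes that were tested, a smaller set. The count of called probes, 3622, was 2257 (473 lower in EAE) without the filter on dim probes, and 5360 with normexp. Those higher in EAE went from 2523 to 3958 with normexp. With 1 array left out the calls numbered from 1412 to 4672, of which from 1204 to 2663 were higher and from 208 to 2009 lower. With the replicate number as a block, the Tfrc difference was -0.60 (limma adjusted p = 0.168). Arrays with the same number deviated from their group means with correlations of 0.15, 0.04 and -0.14, so replicate numbers were not used as pairs. The block gave 3740 calls. The median signal of the Tfrc spots was at least 745 times their local background on every array.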
